A study of Arabidopsis thaliana with 8 samples.

Results

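The 9 genes described here encode metabolic enzymes, and 1 transcription factor of the polyamine pathway, whose translation is controlled by upstream open reading frames. They were picked by locus, as 9 of the 27172 genes in the deposited tables, with earlier results of these data known. SAMDC1 (AT3G02470), SAMDC2 (AT5G15950) and SAMDC3 (AT3G25570) encode S-adenosylmethionine decarboxylases, which make the aminopropyl donor for spermidine and spermine. NMT1 (AT3G18000, also called XPL1), NMT2 (AT1G48600) and NMT3 (AT1G73600) encode phosphoethanolamine N-methyltransferases, which make phosphocholine for phosphatidylcholine. VTC2 (AT4G26850) and VTC5 (AT5G55120) encode GDP-L-galactose phosphorylases, the committed step of ascorbate synthesis. SAC51 (AT5G64340) encodes a basic helix-loop-helix transcription factor that acts downstream of thermospermine.

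RNA-seq and ribosome footprint profiling were done on leaves of 3-week-old Arabidopsis thaliana Col-0 plants. All plants, mock included, carried the transgene 35S:uORFsTBF1-LUC, a luciferase reporter behind the upstream open reading frames of TBF1 and driven by the broadly active 35S promoter. Plants received 10 µM elf18 by infiltration, a fragment of the bacterial translation factor EF-Tu that plants sense as a sign of infection, or 10 mM MgCl2 as mock. The interval from infiltration to harvest is not given in the sources used here. There were 4 lysates, 2 mock and 2 elf18, each of which pooled 2 leaves from each of about 24 plants and yielded 1 RNA library and 1 footprint library, so that every group had n = 2. Nothing in the labels says that the 2 lysates of a group came from separate growth batches, so p-values measure the spread between these lysates alone.

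An upstream open reading frame lies in the leader of a messenger RNA, before the main coding sequence, and ribosomes that translate it often fail to start again downstream. In some genes the peptide it encodes stalls the ribosome when a metabolite is plentiful, so that an end product limits the synthesis of its own enzyme. Polyamines act in this way on SAMDC1, phosphocholine on NMT1 and ascorbate on VTC2, where the upstream frame begins at a codon other than AUG. Thermospermine works in the other direction on SAC51 and relieves the block by its upstream frames. The deposited footprint counts cover main coding sequences, so ribosomes on the upstream frames themselves were not measured here.

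Counts over coding sequences totalled 4752563 to 12834781 per library, and counts over exons, available for RNA alone, totalled 7898180 to 15405467. The elf18 RNA libraries detected fewer genes on coding sequences, 13826 and 13518, than the mock RNA libraries, 16559 and 16816. The labelled tissue matched its markers: 5 leaf mesophyll genes together had 68752 to 68755 CPM (counts scaled to library size) in mock and 62805 to 73056 with elf18, while 3 of 4 root, 2 of 3 flower and 2 of 3 seed markers had no RNA count. Guard cell markers summed to 22.4 to 33.0 CPM in mock and 12.4 to 46.7 with elf18, and phloem and vascular markers to 558 to 609 and 724 to 944. WRKY33, a transcription factor gene induced by elicitors, rose from 2501 and 1313 exon counts in the mock libraries to 8746 and 9896 counts (log2 change 2.25, adjusted p = 0.00127), and FRK1, another elicitor marker, had 0 and 0 against 17 and 0.

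None of the 9 genes passed the test for a change in RNA, in footprints or in footprints relative to RNA after elf18. Here and below, a gene passed when its Benjamini-Hochberg adjusted p over all genes tested by edgeR's quasi-likelihood test was under 0.05, and ± after a log2 change is its standard error. Groups said not to overlap are 2 libraries against 2, which is a description and not a test. The share of all genes without overlap was not counted, so a lack of overlap alone does not set a gene apart from others. On exon counts 0 of 9 passed, against 3.2% of 15870 genes tested. On coding-sequence RNA counts 0 of 9 passed against 2.71% of 15441, and in footprints 0 of 8 against 2.76% of 14446. At an unadjusted p under 0.05 the numbers were 1, 1 and 2 of these genes, where 15.9%, 15.9% and 8.36% of all genes tested stood at that level. DESeq2 called the same numbers of these genes, NMT1 in both kinds of RNA count and SAMDC1 and SAMDC2 in footprints, against 16.6%, 17% and 6.02% of all genes. The limma voom fit called 0, 0 and 1, against 3.48%, 3.01% and 4.1%. The 1 gene in RNA was NMT1 at both thresholds, and it passed the low-count filter through its mock libraries alone. In both kinds of RNA count, 1 of 9 is no more than the background at an unadjusted p or in DESeq2. The list counts given further below at these thresholds are to be read against the same shares. In whole leaves, fewer cells of a type and less RNA per cell cannot be told apart.

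**Figure D1:**
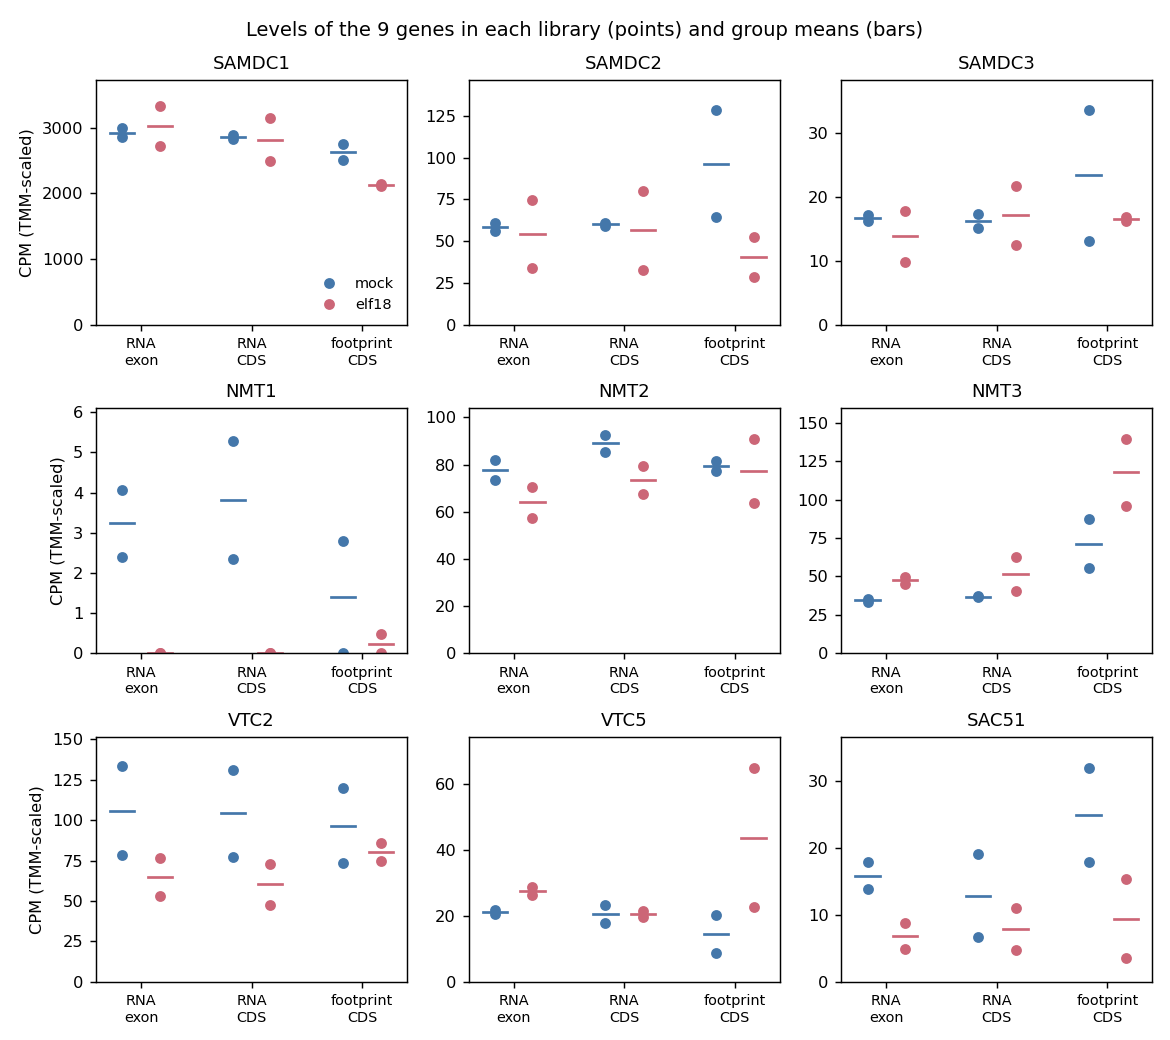
Levels of the 9 genes in each library, in CPM on a linear axis that starts at 0, for RNA on exons, RNA on coding sequences (CDS) and footprints on coding sequences; points are libraries and bars are means of n = 2. SAMDC1 footprints were 2507 and 2748 CPM in mock and 2108 and 2148 with elf18, while NMT1 RNA was 0 in both elf18 libraries.

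SAMDC1 had RNA on both sides of its mock level with elf18, and footprints below it. Exon RNA was 2989 and 2862 CPM in mock and 2716 and 3329 CPM with elf18 (log2 change 0.05 ± 0.11, 95% interval -0.23 to 0.32, adjusted p = 0.960). Footprints were 2507 and 2748 CPM in mock and 2108 and 2148 CPM with elf18. The footprint groups did not overlap, and the fitted level with elf18 was 0.792 of mock (log2 change -0.34 ± 0.10, 95% interval -0.56 to -0.11, adjusted p = 0.169). This change was called by DESeq2 (adjusted p = 0.00162) and by limma voom (1.3e-07). It was -0.40 without footprint mock replicate 1, a fit with 1 mock library alone. The RNA value turned with the elf18 library used: on exon counts it was 0.19 without RNA elf18 replicate 1 (adjusted p = 0.0196) and -0.11 without replicate 2 (0.167), and on coding sequences 0.13 (0.108) and -0.18 (0.0348).

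SAMDC2 footprints were also lower with elf18, again without passing the test. Its footprints were 128 and 64.4 CPM in mock and 52.8 and 28.6 CPM with elf18, and the groups did not overlap (log2 change -1.27 ± 0.44, 95% interval -2.23 to -0.31, adjusted p = 0.277). Exon RNA was 61.0 and 56.4 CPM in mock and 74.7 and 34.2 CPM with elf18, on both sides of mock (log2 change -0.11 ± 0.39, adjusted p = 0.982). The footprint change passed without a filter on low counts (adjusted p = 0.0307) and in DESeq2 (0.0477). Leaving out 1 library puts 1 library alone in its group. The change was then -1.68 without footprint mock replicate 2, -1.77 without footprint elf18 replicate 1 and -0.69 without footprint mock replicate 1. The RNA change was -0.78 without RNA elf18 replicate 1 and 0.35 without replicate 2.

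SAMDC3 was counted at low depth and its replicates differed more than its groups. Its exon RNA was 17.2 and 16.2 CPM in mock and 17.8 and 9.90 CPM with elf18 (log2 change -0.27 ± 0.58, adjusted p = 0.958). Footprints were 33.7 and 13.1 CPM in mock and 16.9 and 16.3 CPM with elf18, so both elf18 values lay inside the mock range (log2 change -0.53 ± 0.80, 95% interval -2.27 to 1.22, adjusted p = 1.00). Without footprint mock replicate 1 this value was 0.30, and without RNA elf18 replicate 2 the RNA value was 0.10.

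NMT1 was the one gene of the 9 with no RNA count in elf18 leaves. It had 64 and 20 exon counts in the mock libraries and 0 and 0 with elf18, which is at least 29.2-fold lower against a floor of 3 counts over the elf18 group. Over coding sequences the mock counts were 64 and 15, at least 28.2-fold above the same floor. The gene passed the low-count filter through its mock libraries alone, and the test did not call it (adjusted p = 0.145 on exons and 0.153 on coding sequences). DESeq2 did (0.0110 and 0.0154), where it called 16.6% and 17% of all genes tested. The elf18 RNA libraries detected fewer genes in general: of 4220 genes with 42 to 168 exon counts over the mock pair, 14.5% had 0 in both elf18 libraries and 49.9% in at least 1. The part of this in the NMT1 value was not tested. NMT1 footprints were 0 and 21 counts in mock and 3 and 0 with elf18, too few for the test, with a depth-scaled ratio of mock to elf18 of 6.40 (95% counting interval 1.91 to 33.5) that rests on 1 mock library.

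NMT2 was lower with elf18 in RNA and NMT3 was higher in RNA and footprints, in neither case passing the test. NMT2 exon RNA was 82.1 and 73.5 CPM in mock and 57.4 and 70.5 CPM with elf18, with no overlap (log2 change -0.28 ± 0.22, 95% interval -0.82 to 0.26, adjusted p = 0.734). NMT2 footprints were 77.2 and 81.3 CPM in mock and 90.7 and 63.9 CPM with elf18, so the elf18 values enclosed those of mock (log2 change -0.07 ± 0.33, adjusted p = 1.00; 0.21 without footprint elf18 replicate 2). NMT3 exon RNA was 33.4 and 35.4 CPM in mock and 45.3 and 49.5 CPM with elf18 (log2 change 0.46 ± 0.27, 95% interval -0.20 to 1.12, adjusted p = 0.560). NMT3 footprints were 87.2 and 55.5 CPM in mock and 95.8 and 140 CPM with elf18 (log2 change 0.69 ± 0.34, 95% interval -0.05 to 1.43, adjusted p = 0.664). In both, the NMT3 groups did not overlap.

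Within the methyltransferase family, NMT3 held a larger share of the RNA counts in the elf18 libraries. NMT3 held 27.1% and 29.9% of the family's coding-sequence RNA counts in mock and 37.5% and 44.1% in the elf18 libraries. The nearest mock and elf18 shares had 95% Wilson intervals of 26.9% to 33.2% and 34.4% to 40.7%, which cover counting error alone. Its share of the family's footprints was 53.0% and 39.7% in mock and 51.2% and 68.6% with elf18, where the groups overlapped. These are shares of counts, not corrected for length, and no test was run on them. Reads that match more than 1 family member could be split between them, and how they were counted is not given in the sources used here.

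VTC2 RNA was lower and VTC5 footprints were higher with elf18, each with a wide interval. VTC2 exon RNA was 134 and 78.2 CPM in mock and 53.2 and 76.9 CPM with elf18. The groups did not overlap, but the nearest values were 78.2 and 76.9 CPM (log2 change -0.70 ± 0.33, 95% interval -1.51 to 0.11, adjusted p = 0.414). The value was -0.27 without RNA mock replicate 1 and -1.00 without RNA elf18 replicate 2 (-1.12 on coding sequences). VTC2 footprints were 73.3 and 120 CPM in mock and 75.0 and 85.9 CPM with elf18, inside the mock range (log2 change -0.30 ± 0.34, adjusted p = 1.00; 0.11 without footprint mock replicate 2).

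VTC5 exon RNA was 20.7 and 21.8 CPM in mock and 26.4 and 28.7 CPM with elf18 (log2 change 0.37 ± 0.37, 95% interval -0.54 to 1.28, adjusted p = 0.841). On coding sequences alone the mock values, 17.8 and 23.4 CPM, enclosed those with elf18, 19.7 and 21.4 CPM. VTC5 footprints were 8.82 and 20.2 CPM in mock and 22.6 and 64.9 CPM with elf18, without overlap (log2 change 1.55 ± 0.71, 95% interval -0.0041 to 3.11, adjusted p = 0.602). Of the footprints on both phosphorylase genes, VTC5 held 10.7% and 14.4% in mock and 23.2% and 43.0% with elf18. Without footprint elf18 replicate 2 the footprint change was 0.64 and without footprint mock replicate 1 it was 1.08.

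SAC51 had lower exon RNA and footprint values in both elf18 libraries than in mock, on low counts and without passing the test. Exon RNA was 13.9 and 17.9 CPM in mock and 8.83 and 4.95 CPM with elf18, with no overlap (log2 change -1.20 ± 0.72, 95% interval -2.97 to 0.56, adjusted p = 0.581). It passed without RNA elf18 replicate 1 (-1.67, adjusted p = 0.0374), a fit in which 1 elf18 library stands alone and 4377 genes pass. On coding sequences the mock values, 6.68 and 19.1 CPM, and the elf18 values, 11.1 and 4.68 CPM, overlapped. SAC51 footprints were 31.9 and 17.9 CPM in mock and 3.50 and 15.4 CPM with elf18, without overlap (log2 change -1.43 ± 0.97, 95% interval -3.54 to 0.67, adjusted p = 0.917). This value was -2.81 without footprint elf18 replicate 2 and -0.72 without footprint elf18 replicate 1.

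**Figure D2:**
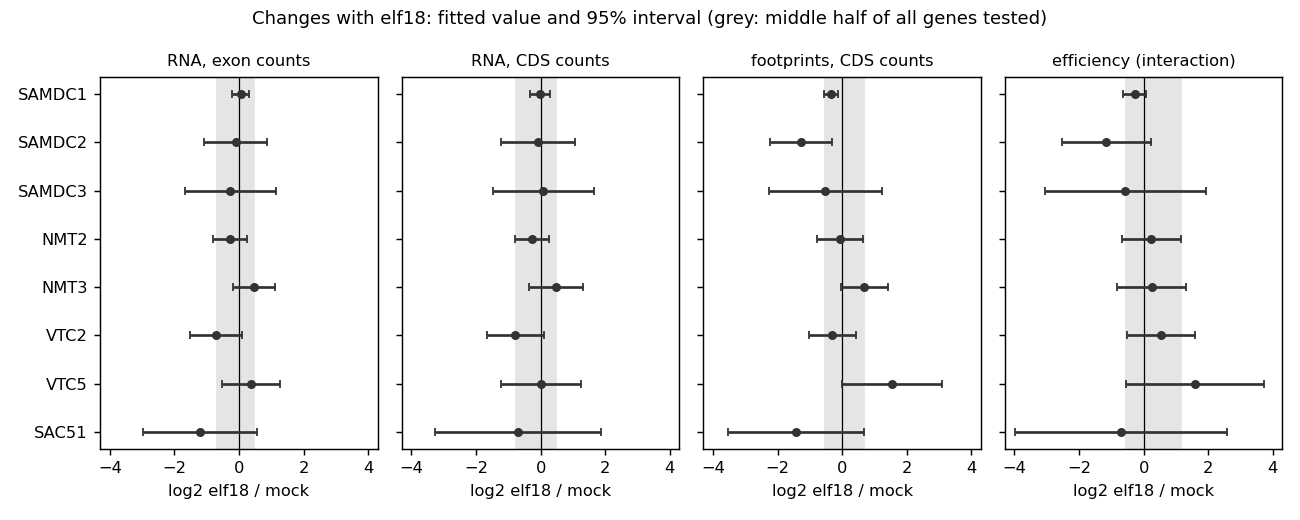
Log2 change with elf18 of the 8 genes with counts in every group, with 95% intervals from the edgeR fit, for RNA on exons, RNA on coding sequences, footprints, and footprints relative to RNA (efficiency); grey bands hold the middle 50% of all genes tested. The narrowest intervals belong to SAMDC1, and only its footprint interval (-0.56 to -0.11) and that of SAMDC2 (-2.23 to -0.31) lie wholly on one side of 0.

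Whether elf18 shifted footprints beyond RNA was asked with an assay-by-treatment interaction fitted to the 8 libraries together. None of the 9 genes passed, and 0% of 16177 genes did; 725 genes but none of the 9 had an unadjusted p under 0.05, and DESeq2 called 70 genes, limma voom 2 and the fit with lysates as blocks 6, again none of the 9. All 3 decarboxylase genes had negative values: -0.28 ± 0.16 for SAMDC1, -1.15 ± 0.65 for SAMDC2 and -0.57 ± 1.18 for SAMDC3. The 95% interval was -0.63 to 0.06 for SAMDC1 and -2.52 to 0.22 for SAMDC2, and the SAMDC3 value turned to 0.18 without footprint mock replicate 1. NMT2 and NMT3 both stood at 0.24, with standard errors of 0.43 and 0.51, and both turned sign when 1 library was left out. VTC2 had 0.53 ± 0.50 and VTC5 1.59 ± 1.02 (95% interval -0.56 to 3.74), SAC51 -0.69 ± 1.55, and the median of all genes tested was 0.16. Adjusted p was 1.00 for each.

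The number of footprints per RNA on the main coding sequence was then compared with that of other genes, over all 4 lysates. The ratio divides footprint CPM by RNA CPM of the same lysate. Library scaling puts a typical gene near 1, so the ratio is a relative value and cannot give an absolute rate. The typical ratio within each single lysate was not computed, so single lysates are set against 1 alone. One of the 9 genes passed the test against the typical gene, NMT3, where 9.33% of 16177 genes passed, 4.97% higher and 4.36% lower. For 1 gene in 9 this share is near the background. This fit, also used for the pathway lists below, did not use the pairing by lysate. With lysates as blocks 2 of the 9, NMT3 and SAMDC1, were called, where 1901 of 16177 genes were.

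NMT3 carried more footprints per RNA than the typical gene over the 4 lysates together. Its ratio was 2.39 and 1.48 in the mock lysates and 2.37 and 2.23 in the elf18 lysates, all above 1. The fitted value over the 4 lysates was 2.10-fold (log2 1.07 ± 0.26, 95% interval 0.52 to 1.62, adjusted p = 0.0121), at the 83.4th percentile of all genes tested. It passed under 11 of 13 alternatives and was lost without footprint mock replicate 1 (0.88, adjusted p = 0.0543) and without footprint elf18 replicate 2 (0.91, adjusted p = 0.0833). NMT2 stood lower in each lysate, with ratios of 0.833 and 0.954 in mock and 1.35 and 0.803 with elf18. The difference between the NMT3 and NMT2 log2 ratios was 1.11 ± 0.45 (SD, n = 4 lysates) and positive in 4 of 4. An exact two-sided sign-flip test gave p = 0.125, the smallest that 4 lysates allow, or 0.625 adjusted over the 5 paralog pairs compared.

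SAMDC1 had a fitted ratio slightly below that of the typical gene over the 4 lysates together, without passing the test. Its ratio was 0.868 and 0.970 in mock and 0.847 and 0.683 with elf18, so all 4 lay below 1. The fitted value was 0.833 (log2 -0.26 ± 0.08, 95% interval -0.44 to -0.09, adjusted p = 0.0532), just outside the threshold and at the 39.5th percentile of all genes tested. With the lysates as blocks, which is the real pairing here, it passed (log2 -0.26, adjusted p = 0.0203), and it passed under 7 of 13 alternatives in all.

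The other genes with a ratio in every lysate had values on both sides of 1. NMT1 had a ratio in 1 lysate alone, 1.19 in mock replicate 2, because its RNA or footprint count was 0 in the rest. SAMDC2 had 2.10 and 1.09 in mock and 0.658 and 0.872 with elf18, higher in both mock lysates. SAMDC3 had 2.22 and 0.755 in mock and 0.775 and 1.30 with elf18, with no order between the groups. VTC2 had 0.558 and 1.55 in mock and 1.58 and 1.18 with elf18. VTC5 had 0.495 and 0.864 in mock and 1.15 and 3.04 with elf18, lower in both mock lysates. SAC51 spread widest, with 4.78 and 0.937 in mock and 0.316 and 3.28 with elf18. For SAMDC2, SAMDC3, NMT2, VTC2, VTC5 and SAC51 the fitted log2 values ran from -0.05 to 0.61 and every 95% interval included 0. In the 4 other paralog pairs the mean log2 difference ran from -0.03 to 0.45, with an SD over lysates of 0.46 to 0.97, and the exact sign-flip p from 0.5 to 1. Since 4 lysates cannot bring this test to 0.05, it does not bear on whether the paralogs differ.

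**Figure D3:**
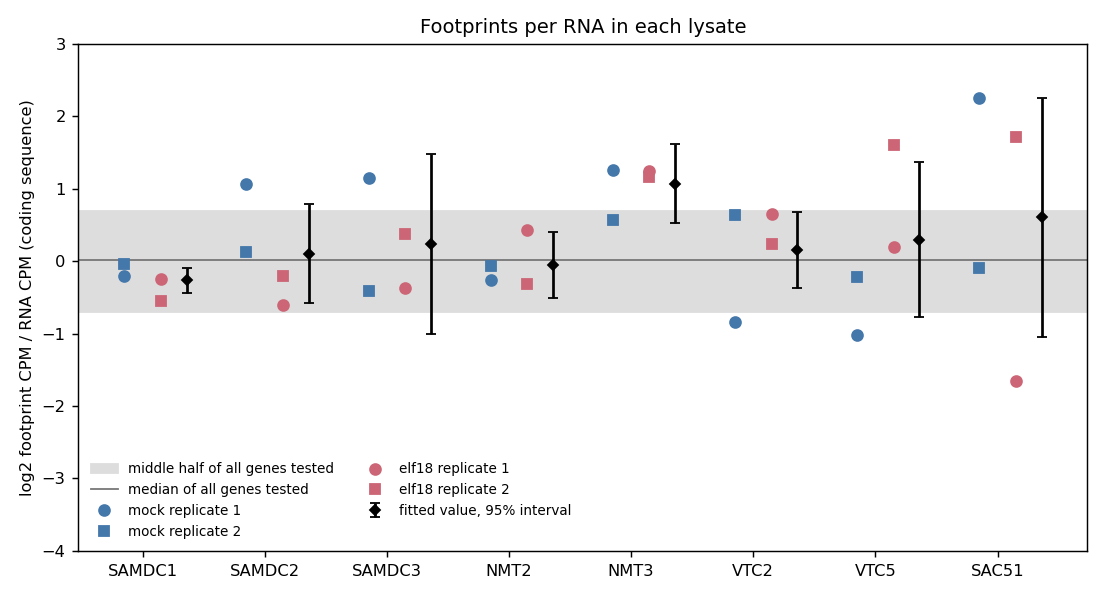
Log2 ratio of footprint to RNA CPM over the coding sequence in each lysate, by gene, with the fitted value over all 4 lysates and its 95% interval in black; the grey band holds the middle 50% of all genes tested. The 4 NMT3 points lie between 0.57 and 1.26, all 4 SAMDC1 points lie below 0, and SAC51 points run from -1.66 to 2.26.

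The share of exon RNA counts that fell outside the main coding sequence was compared next, because the upstream frames lie in that part of the transcript. The share takes the leader and the 3′ untranslated region together, and the files do not separate them. It may also lack leader reads shared with an adjoining row of the tables, whose counting is not given in the sources used here. Intervals here are 95% Wilson intervals and cover counting error alone. None of the 8 genes with an estimate passed a test of a different share with elf18, as for 0% of 15820 genes tested by edgeR; 888 genes and none of the 8 had an unadjusted p under 0.05, and limma on log2 odds called 0, with 2125 at an unadjusted p under 0.05.

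SAMDC1, the best counted, had nearly the same share in every library. Its outside share was 25.5% (25.1% to 25.9%) and 24.2% (23.7% to 24.8%) in mock and 27.6% (27.1% to 28.1%) and 25.4% (25.0% to 25.8%) with elf18. In each library this placed SAMDC1 at the 76.4th to 77.3rd percentile of genes with at least 100 exon counts, whose median share was 12.9% and 13.2% in mock and 11.3% and 7.01% with elf18. The odds of an outside count changed by 0.12 ± 0.16 on the log2 scale (95% interval -0.28 to 0.53, adjusted p = 1).

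VTC2 had 24.3% and 24.2% in mock and 29.4% and 25.2% with elf18, also above the median in every library. VTC5 had 33.7% and 18.1% in mock and 41.2% and 41.1% with elf18, so the elf18 libraries lay above both mock values (log2 odds 1.05 ± 1.48, adjusted p = 1). This share accompanies the VTC5 values above, in which exon RNA was higher with elf18 and coding-sequence RNA was not. SAMDC2 had 22.7% and 20.0% in mock and 15.2% and 24.1% with elf18. For NMT2 the shares were 13.0% and 11.3% against 7.44% and 10.9%.

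In 3 of the 8 genes single libraries held almost no outside counts. NMT3 had 15.8% and 19.0% in mock, but 29.6% in RNA elf18 replicate 1 and 0 of 710 counts in replicate 2, which allows a share of up to 0.423%. Without RNA elf18 replicate 1 this difference passed (adjusted p = 0.0254), in a fit that called 715 genes, 19 higher and 696 lower, and without replicate 2 the log2 odds turned to 1.00. SAMDC3 had 31.9% and 17.8% in mock against 3.65% and 0% with elf18, the latter 0 of 142 counts with a limit of 2.11% (log2 odds -4.71 ± 2.56, 95% interval -11.12 to 1.70, adjusted p = 1). SAC51 had 62.8% and 18.1% in mock and 1.05% and 25.4% with elf18. Such empty flanks were common in the elf18 RNA libraries: of genes with at least 100 exon counts, 11.3% and 5.24% had no outside count in mock, and 27.4% and 36.6% with elf18. The part of this in the NMT3, SAMDC3 and SAC51 values was not tested.

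**Figure D4:**
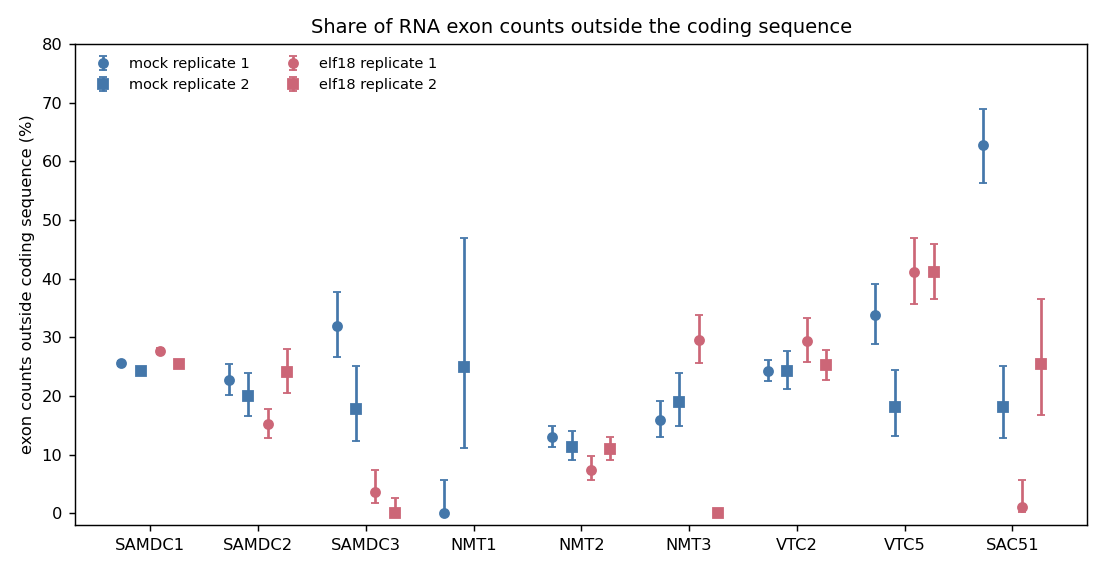
Share of each gene's exon RNA counts that lay outside the main coding sequence, in percent, per RNA library with 95% Wilson intervals; NMT1 has no elf18 value because it had no count there. The 4 SAMDC1 points lie between 24.2% and 27.6%, whereas NMT3 runs from 0% to 29.6% and SAC51 from 1.05% to 62.8%.

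The tables also hold rows numbered right beside these genes. Among 62 rows with blank footprint values there are 9 whose locus number differs by at most 5 from that of one of the genes. They adjoin 7 of the genes, and none adjoins VTC2 or VTC5. None of the 62 is in the supplied locus table, so they are given by ID alone, and they were picked after their values had been seen. AT3G02468, numbered just before SAMDC1, was the deepest, with 2386 and 1278 exon counts in the mock libraries and 1250 and 2452 in the elf18 libraries, or 4.28% to 5.36% of the SAMDC1 exon counts (log2 change -0.09 ± 0.22, 95% interval -0.62 to 0.44, adjusted p = 0.965). AT5G15948, beside SAMDC2, had 74 and 70 counts in mock and 55 and 22 with elf18, AT3G25572, beside SAMDC3, had 49 and 19 against 7 and 0, and AT5G64341, beside SAC51, had 17 and 12 against 0 and 0. The remaining 5 rows had 0 exon counts in all 4 RNA libraries, among them those beside NMT1, NMT2 and NMT3. Some rows held more coding-sequence than exon counts, such as 82 against 17 for AT5G64341 in RNA mock replicate 1. The place of these rows relative to the leaders, and the assignment of reads they share with the main gene, are not given in the sources used here.

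Few of the other genes of these pathways passed the test. The pathway lists were also chosen with earlier results of these data known. In polyamine synthesis and oxidation, 2 of 17 genes rose on exon counts and none fell (median log2 change -0.10, against -0.09 for all genes tested). Of all genes, 3.04% were called higher and 0.158% lower by edgeR, while DESeq2 called 1245 higher and 1383 lower. ADC1 and ADC2 encode arginine decarboxylases, the first step of putrescine synthesis. ADC2 exon RNA was 809 and 798 CPM in mock and 1124 and 1181 CPM with elf18 (log2 change 0.52 ± 0.09, adjusted p = 0.0375). ADC1 was 211 and 231 CPM in mock and 350 and 389 CPM with elf18 (0.74 ± 0.13, adjusted p = 0.0419). For neither gene did the groups overlap. Both calls were lost without RNA mock replicate 1 (adjusted p = 0.138 for ADC2 and 0.293 for ADC1) or replicate 2 (0.189 and 0.0905), and on coding-sequence counts 0 of 17 genes passed, with 3 at an unadjusted p under 0.05, 3 by DESeq2 and 1 by limma voom.

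In footprints 0 of 17 polyamine genes passed (3 at an unadjusted p under 0.05, against 8.36% of all genes, 1 by DESeq2, 1 by limma voom). BUD2, the remaining S-adenosylmethionine decarboxylase gene, named after its values were seen, had 164 and 23 footprints in mock and 0 and 0 with elf18. That is at least 57.0-fold lower against the floor of 3 counts, with adjusted p = 0.0753. The gene passed the low-count filter through its mock libraries alone, and these differed widely in count. The share of genes at this depth without elf18 footprints was not counted.

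The methionine and S-adenosylmethionine cycle, which supplies the substrate of the decarboxylases and methyltransferases, had 1 gene of 17 tested that fell in footprints and none that rose. In all, 14 had a log2 change below 0, and the median change was -0.45 against 0.01 for all genes, of which the middle 50% ran from -0.53 to 0.69. The one that passed was HOG1, the S-adenosylhomocysteine hydrolase gene: its footprints fell from 1052 and 923 CPM in mock to 633 and 595 CPM with elf18, where 0.166% of all genes tested were called lower (log2 change -0.72 ± 0.14, adjusted p = 0.0145; 0.174 without footprint elf18 replicate 2). HOG1 exon RNA was 1097 and 1123 CPM in mock and 801 and 866 CPM with elf18, also without overlap (log2 change -0.41 ± 0.09, 95% interval -0.64 to -0.19, adjusted p = 0.102), and its footprints relative to RNA stood at -0.24 ± 0.18 (adjusted p = 1.00). At an unadjusted p under 0.05 there were 7 genes in footprints, where 8.36% of all genes stood, with 5 called by DESeq2 and 2 by limma voom. On exon counts 0 of 18 genes passed (2 at an unadjusted p under 0.05, 2 by DESeq2, 1 by limma voom), and the median log2 change was -0.01.

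In phosphatidylcholine and phosphoethanolamine synthesis CK1, a choline kinase gene that feeds phosphocholine from free choline, rose in RNA and footprints and was the only 1 of 11 and of 10 genes tested to pass. CK1 exon RNA was 109 and 103 CPM in mock and 339 and 322 CPM with elf18, a 3.12-fold rise (log2 1.64 ± 0.13, adjusted p = 0.00248). CK1 footprints were 85.8 and 77.4 CPM in mock and 198 and 205 CPM with elf18, a 2.42-fold rise (log2 1.27 ± 0.25, adjusted p = 0.0125). The list median was 0.30 in exon RNA and 0.35 in footprints. CK1 passed in all 9 alternatives for each of these readouts.

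In ascorbate synthesis 1 of 11 genes fell in exon RNA and none rose (list median -0.16). It was MEE31, the phosphomannose isomerase gene, which went from 72.1 and 67.3 CPM in mock to 24.6 and 24.1 CPM with elf18 (log2 change -1.52 ± 0.25, adjusted p = 0.0350), and lost its call without RNA mock replicate 1 (0.403) or replicate 2 (0.247). In ascorbate recycling and peroxidases 1 of 12 rose in both readouts. ATMDAR2, a monodehydroascorbate reductase gene that regenerates ascorbate, rose 8.21-fold in exon RNA, from 31.4 and 40.3 CPM in mock to 275 and 313 CPM with elf18 (log2 3.04 ± 0.19, adjusted p = 0.00138). Its footprints rose 6.03-fold, from 21.6 and 51.2 CPM to 209 and 242 CPM (log2 2.59 ± 0.37, adjusted p = 0.00154). ATMDAR2 passed in all 9 alternatives for each readout.

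Among 9 relatives of SAC51 and genes of the thermospermine pathway, and among 15 other genes with known upstream open reading frames, none passed on exon counts (medians -0.19 and -0.27). At an unadjusted p under 0.05 there were 1 and 2 genes, against 15.9% of all genes, DESeq2 called 1 and 2 against 16.6%, and limma voom 0 and 0. None passed in footprints either, of 9 and of 13 genes (medians 0.35 and 0.05), with 1 and 1 at an unadjusted p under 0.05, 0 and 1 by DESeq2 and 0 and 0 by limma voom. GBF6 and bZIP44, named after their values were seen, encode bZIP transcription factors. Both passed the low-count filter on coding-sequence counts through their mock libraries alone. They had 29 and 27, and 49 and 11 coding-sequence RNA counts in mock and 0 in both elf18 libraries, with adjusted p = 0.153 for each. On exon counts neither was at 0 in both: GBF6 had 29 and 33 in the mock libraries and 0 and 38 in the elf18 libraries (adjusted p = 0.954), and bZIP44 had 70 and 19 against 15 and 0 (adjusted p = 0.844).

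**Figure D5:**
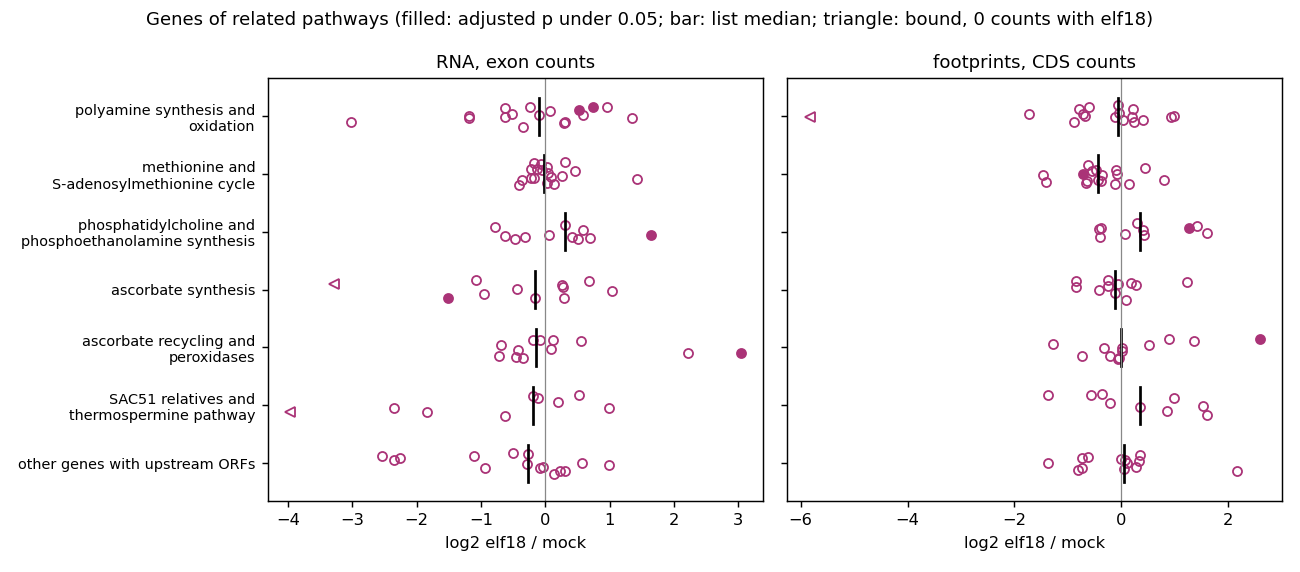
Log2 change with elf18 of each gene of 7 pathway lists, in RNA on exons and in footprints; filled points passed the test, black bars are list medians, and triangles are bounds for genes with 0 counts with elf18, set at a floor of 3 counts. ATMDAR2 (3.04 and 2.59) and CK1 (1.64 and 1.27) are filled in both panels, and HOG1 (-0.72) is the filled point below 0 in footprints.

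For footprints per RNA, 4 genes of the methionine and S-adenosylmethionine cycle stood lower than the typical gene and 2 higher, of 18 tested. Of all 16177 genes tested, 4.36% were called lower and 4.97% higher. At an unadjusted p under 0.05 there were 7 genes of the cycle, against 19.7% of all genes. DESeq2 called 7 of the cycle and 2760 of all genes, and limma voom 5 and 1704. MTN1, the methylthioadenosine nucleosidase gene, had 0.491 of the typical ratio (log2 -1.03 ± 0.29, adjusted p = 0.0300), and the S-adenosylmethionine synthetase genes SAM-2 and SAM1 had 0.620 and 0.649 (adjusted p = 0.00567 and 0.00511). HOG1, also lower at 0.691 (adjusted p = 0.000920), and the methionine synthase genes ATMS1 and MS2, higher at 1.45 and 1.49 (adjusted p = 0.000255 and 0.0102), were named after their values were seen. SAC52, a ribosomal protein L10 gene found as a suppressor of a thermospermine mutant, had 0.462 (log2 -1.11 ± 0.14, adjusted p = 4.7e-05). CK1 had 0.693 (adjusted p = 0.0252) and CYT1, the GDP-mannose pyrophosphorylase gene of ascorbate synthesis, 0.651 (adjusted p = 0.0377). BOR1, a borate transporter gene with upstream frames, had a fitted value of 7.45-fold (log2 2.90 ± 0.88, adjusted p = 0.0493). Its RNA counts were 250 and 59 in mock and 12 and 0 with elf18. Its ratio was 1.60 and 1.62 in the mock lysates and 17.0 in elf18 replicate 1, with none in replicate 2. Leaving out RNA elf18 replicate 2 gave a fitted log2 value of 2.38, and leaving out replicate 1, which removes every elf18 RNA count, gave 5.61. Leaving out 1 library ended the calls of MTN1, CK1, CYT1, BOR1 and MS2, with adjusted p from 0.0524 to 0.141, and none of those of SAM-2, SAM1, SAC52, HOG1 or ATMS1. MTN1 also lost its call in limma voom (adjusted p = 0.0533), and in 6 of 13 alternatives in all.

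The genes whose coding-sequence levels followed 4 of these genes most closely over the 8 libraries were listed by Pearson correlation of log2 CPM, as a description, since the 8 libraries come from 4 lysates and mix 2 assays. SAMDC1 was closest to MAP1C, a methionine aminopeptidase gene (r = 0.961), and PMM, the phosphomannomutase gene (0.955), among 9270 genes. VTC2 was closest to AT1G71410 (0.907) and AT2G03750 (0.906), and SAC51 to DFD (0.919) and Hsp70-2 (0.915). NMT1 was closest to AT3G12930 (0.962) and TTL3 (0.950), with 4 of its own 8 libraries at 0 counts.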

How the data were processed

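The authors deposited unnormalised read counts, 1 value per gene and library, in 2 tables, over exons for the 4 RNA libraries and over coding sequences for all 8 libraries, as whole numbers and unequal totals show. The submitters' processing notes name build TAIR10 and, as tools, HTSeq, Bowtie2 2.0 and CASAVA 1.8.2. Strand setting, footprint size selection in software and the counting of reads shared between genes are not given in the sources used here. Gene symbols came from a RefSeq locus table of another assembly release, used for names only, in which 26685 of 27172 rows matched. Coordinates and gene lengths were not used, and sequences of the 9 genes were not analysed here. Footprints were blank for 62 rows, which entered the exon test alone, and 66 rows held a coding-sequence count above the exon count.

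The 9 genes and the pathway lists were chosen with earlier results of these data known. Fits ran over all genes in R 4.3.3 with edgeR 4.0.16 (TMM scaling, a filterByExpr minimum of 10, quasi-likelihood test, Benjamini-Hochberg adjustment, call under 0.05). Each treatment comparison used its own 4 libraries, and efficiency and ratio used all 8 with group means. The outside share compared exon minus coding-sequence counts with coding-sequence counts, with library as a block. Alternatives were DESeq2 size factors in edgeR, no low-count filter, DESeq2 1.42.0, limma voom 3.58.1, blocks and leaving out each library; for the outside share, limma on log2 odds with pseudocounts of 0.5 and 2 stood in place of the other tools. Fits were also run on simulated counts of better-counted genes with a fixed spread. Genes near the floor of 3 counts and groups without counts were not covered by that run. All 9 genes were named. The main-fit efficiency and ratio of NMT1 entered the tests but are not printed, because its RNA was 0 with elf18. Of each list, the called genes were named up to 3 per comparison by size of change. Others are marked as named after their values were seen. Depth set a floor of 3 counts, on coding sequences 0.247 to 0.470 CPM for RNA and 0.398 to 0.588 CPM for footprints, and intervals on counts cover counting error alone.

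RNA and footprint libraries were paired by lysate through the sample ID numbers, since part of each lysate went to each assay per the labels' protocols. The 2 libraries of a lysate deviated from their group means with a correlation of r = -0.00866 in mock and -0.000293 with elf18 over 16177 genes. Mock and elf18 replicate numbers were treated as names, because no label says that they mark a shared batch. Exact sign-flip tests used Python 3.11.15 with scipy 1.17.1.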

Additional observations from a re-analysis of the deposited data

How the results depend on the processing

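Of 342 values of single genes under other settings, 326 kept their direction and side of the threshold, 12 gained a call, 1 lost it and 3 turned sign; of 384 values with 1 library left out the numbers were 308, 15, 29 and 32. These numbers leave out the NMT1 efficiency and ratio, whose fitted values depend on the prior count because RNA was 0 with elf18; its ratio ran from -1.95 to 1.83 over the alternatives and was negative in limma voom and without footprint mock replicate 2 or footprint elf18 replicate 1. The 3 were the SAMDC1 RNA change on coding sequences, at 0.0147 with DESeq2 size factors, 0.0148 in DESeq2 and 0.0055 in limma voom. The cause of these differences was not tested, except that leaving out a library removes samples from the fit. With 2 libraries per group the spread of a group left with 1 library was assumed to equal that of the others. Depth limits the genes near the floor of 3 counts, above all NMT1.

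Numbers of genes called moved with the test. On exon counts DESeq2 called 2628 genes and edgeR without a library 477 to 4377; on coding-sequence RNA counts 2625 and 357 to 3824. In footprints 636 genes were called without the low-count filter, 870 by DESeq2 and 361 to 1414 without a library. For efficiency the numbers were 8 without the filter, 70 by DESeq2, 2 by limma voom and 0 to 40 without a library; for the ratio DESeq2 called 2760; for the outside share 0 to 715 were called without a library. Of the 9 genes, DESeq2 called 1 on exons, 1 on coding-sequence RNA, 2 in footprints and 2 for the ratio. From the 9, limma voom called 1 in footprints and 2 for the ratio, where it called 1704 of 16177 genes. Without the filter 1 was called in footprints and 2 for the ratio, against 1931 of 19065 genes for the ratio. With DESeq2 size factors 2 were called for the ratio, against 1513 of 16177 genes. Without a library, 0 to 4 of the 9 were called on exons, 0 to 2 on coding-sequence RNA, 0 to 1 in footprints, 0 to 2 for the ratio and 0 to 1 for the outside share.

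The replicate number as a block, which rests on no shared batch, called 916 genes on exons, 836 on coding-sequence RNA and 678 in footprints, with SAMDC2 as 1 of the 9 in footprints (log2 -1.26, adjusted p = 0.0358). Same-numbered mock and elf18 libraries deviated together at r = 0.0227 in RNA and -0.0900 in footprints. With lysates as blocks, the true pairing, 6 genes were called for efficiency, none of them among the 9. For the ratio 1901 of 16177 genes were called, among them 2 of the 9, NMT3 and SAMDC1. No other call of the 9 genes changed with that block.

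Leaving out 1 library turned the sign of these values. On exons SAMDC1 ran from -0.11 to 0.19, SAMDC2 from -0.78 to 0.35 and SAMDC3 from -0.75 to 0.10. On coding-sequence RNA SAMDC1 ran from -0.18 to 0.13, SAMDC2 from -0.88 to 0.44, SAMDC3 from -0.38 to 0.44, VTC5 from -0.18 to 0.21 and SAC51 from -1.45 to 0.25. In footprints SAMDC3 ran from -1.05 to 0.30, NMT2 from -0.34 to 0.21 and VTC2 from -0.61 to 0.11. For efficiency SAMDC3 ran from -1.09 to 0.18, NMT2 from -0.10 to 0.47, NMT3 from -0.0461 to 0.60 and SAC51 from -2.11 to 0.0555. For the ratio SAMDC2 ran from -0.20 to 0.50, SAMDC3 from -0.18 to 0.46, NMT2 from -0.22 to 0.0615, VTC2 from -0.0913 to 0.37, VTC5 from -0.18 to 0.55 and SAC51 from -0.12 to 1.08. For the outside share SAMDC2 ran from -0.60 to 0.23 and NMT3 from -9.95 to 1.00.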
